A study of Mus musculus with 22 samples.

Results

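RNA levels of genes that drive DNA replication and cell division were compared across 22 mouse mammary cell lines, each measured on 1 exon array. The genes were chosen by name: 42 cell cycle genes were looked up by symbol or alias in the platform annotation (Cdk1 is listed there under its older symbol Cdc2a), and 37 had a row of their own among 14860 genes with a row of 1 symbol. Where a gene had several rows, the row with the highest mean over the 22 arrays was used. The 37 genes were 12 genes of DNA replication and nucleotide supply, 4 regulators of the passage from G1 into S phase and 21 genes of mitosis and cytokinesis. Ccnb1, Pcna, Rrm2 and Cenpf were not analysed here. Foxm1 shared its row with another symbol, so no value was taken from it.

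The lines came from 3 kinds of source. From tumours of genetically engineered mice (GEM) came 12 lines of 10 lineages. Among these, 5 lineages carried a Myc transgene: 6DT1, cMyc and Myc83 came from MMTV-Myc mice, and MVT1 and MVT2 from mice carrying both MMTV-Myc and VEGF transgenes. The other 5 GEM lineages were those of lines 2508 and 2855, both from invasive carcinoma ZD2508 of an MMTV-Wnt mouse; M6, from a C3(1)Tag tumour, with M6C, from a lung metastasis of M6; DB7, from a transplanted MMTV-PyVT Db tumour; 780, from a BRCA-/- Wap-cre tumour; and p1522, from a p53-/- MMTV-cre tumour. PyVT Db is a doubly mutated polyoma middle T antigen that does not couple to PI3K. The labels give p53+/+ for 780 in one place and p53+/- for its model in another, and for p1522 they give p53-/- and p53+/-. MMTV and WAP are promoters active in mammary epithelium. From spontaneous tumours came 8 lines of 5 lineages: 67NR, 4T07 and 4T1 from 1 tumour of a BALB/cfC3H mouse, D2A1 and D20R from a D2 hyperplastic alveolar nodule line, EMT6 and TSA from BALB/c tumours, and F311, a sarcomatoid clone of a BALB/c adenocarcinoma. EPH4, a subclone, and NMUMG were immortalized lines from mammary gland without tumour. Media are given for the GEM lines alone. Lines 2508 and 2855 grew in DMEM/F12 with less serum than the other GEM lines and with insulin and epidermal growth factor added. No line had a repeat culture, so lines of a common source were averaged into 17 lineages, and p-values measure the spread between lineages.

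Dividing cells switch these genes on in successive waves. Late in G1, cyclin E kinases inactivate the retinoblastoma protein and free E2F factors, which activate the genes that license replication origins (Cdc6, Cdt1 and the Mcm helicase), fire them (Cdc45) and make nucleotides (Rrm1, Tyms). In G2, the MuvB complex with B-Myb and FoxM1 activates the mitotic genes through promoter elements called cell cycle genes homology regions (CHR), often near CCAAT boxes. The mitotic genes encode the cyclin-dependent kinase Cdk1 and its cyclins, the Aurora and Polo kinases, the spindle checkpoint kinases Bub1, Bub1b and Ttk, and kinesin motors. In whole cultures, a lower level of such an RNA can mean fewer dividing cells or less RNA per dividing cell, and these cannot be told apart.

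Values are log2 array values, so a difference of 1 is a factor of 2. Array medians lay between 6.78 and 7.17, and the SD over an array's probe sets between 1.76 and 2.12. Of the 37 genes, 31 lay above the array median in every line and Gmnn lay below it in all 22. Epithelial markers averaged over 6 genes ranged between 6.17 and 10.37 among GEM lines, between 6.15 and 10.11 among spontaneous lines, and were 9.14 and 9.29 in the immortalized lines. In line 2508, 0 of the 6 markers exceeded the array median and in 67NR 1 did, so the epithelial label was not borne out by these markers there. Single markers were low in other lines as well: Cdh1 and Epcam had 6.28 and 5.58 in 780 (array median 6.82). They had 6.50 and 5.42 in p1522 (array median 6.85). These markers were named for the largest differences of those lines from the other GEM lineages. The other epithelial markers are not given there. Over all lines, 69 of 132 single values of epithelial markers exceeded the array median. Over all lines, 0 of 88 single values of endothelial markers exceeded the array median, as did 19 of 110 of immune cell markers, 22 of 88 of adipocyte markers and 93 of 110 of mesenchymal markers.

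Promoter sequences were set beside the levels because the wave in which a gene is transcribed is tied to short motifs near its start. RefSeq promoter windows of assembly GRCm38.p6, 250 bases before to 50 bases after the start, were found for 30 of the 37 genes. The CHR motif TTTGAA, searched on both strands, occurred in 12 of 17 mitosis genes and 2 of 10 replication genes, against 17.9% of all 32851 windows. A CCAAT box on either strand occurred in 15 of the 17 mitosis genes and 7 of the 10 replication genes, against 37.4% of all windows. The E2F motifs TTTCCCGC, TTTCGCGC, TTTGCCGC and TTTGGCGC, also on both strands, occurred in 6 of 10 replication genes and in 1 of 17 mitosis genes, Cdk1, against 2.26% of all windows. Motif matches are descriptions of letters and not evidence of binding.

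The following windows run over 230 bases, 200 before to 30 after the start, 5′ to 3′ on the gene's own strand, with CHR motifs, CCAAT boxes and E2F motifs in capitals, the CHR variant that starts TTCG included. Bub1 is shown because it varied most among the lines (chr2:127831830-127832059, minus strand), and Birc5 as the gene that passed the test among all lineages and has no match (chr11:117849037-117849266, plus strand). Bub1b (chr2:118598011-118598240, plus strand), Aurka (chr2:172370541-172370770, minus strand) and Cdk1 (chr10:69352883-69353112, minus strand) are shown because they fell in the Wnt lineage below, and Mcm5 (chr8:75109309-75109538, plus strand) as a replication gene with E2F motifs. All of these genes were chosen after their values were seen. Aurka and Bub1b each also hold a CHR motif beyond the printed part of their windows.
Bub1: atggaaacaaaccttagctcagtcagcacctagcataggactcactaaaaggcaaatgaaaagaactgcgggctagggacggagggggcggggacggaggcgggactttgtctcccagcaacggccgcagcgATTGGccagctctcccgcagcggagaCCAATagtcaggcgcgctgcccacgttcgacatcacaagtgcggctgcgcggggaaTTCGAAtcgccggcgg
Bub1b: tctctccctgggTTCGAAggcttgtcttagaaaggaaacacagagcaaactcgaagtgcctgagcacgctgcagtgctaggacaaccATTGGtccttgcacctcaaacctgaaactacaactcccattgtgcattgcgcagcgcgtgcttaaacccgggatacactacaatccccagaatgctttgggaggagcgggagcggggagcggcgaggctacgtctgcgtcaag
Aurka: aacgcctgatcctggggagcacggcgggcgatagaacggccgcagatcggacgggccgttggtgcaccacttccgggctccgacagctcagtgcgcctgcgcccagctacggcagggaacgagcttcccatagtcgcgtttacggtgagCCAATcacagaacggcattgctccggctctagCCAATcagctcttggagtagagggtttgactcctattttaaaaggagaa
Cdk1: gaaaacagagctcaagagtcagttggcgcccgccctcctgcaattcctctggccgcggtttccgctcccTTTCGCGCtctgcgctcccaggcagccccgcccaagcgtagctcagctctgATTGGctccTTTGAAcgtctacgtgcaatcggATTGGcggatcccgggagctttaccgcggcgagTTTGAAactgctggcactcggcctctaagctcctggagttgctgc
Mcm5: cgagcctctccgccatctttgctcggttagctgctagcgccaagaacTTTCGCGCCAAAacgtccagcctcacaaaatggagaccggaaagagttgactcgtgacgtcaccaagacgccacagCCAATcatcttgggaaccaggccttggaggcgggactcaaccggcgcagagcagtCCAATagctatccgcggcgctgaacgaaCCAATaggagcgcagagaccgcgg
Birc5: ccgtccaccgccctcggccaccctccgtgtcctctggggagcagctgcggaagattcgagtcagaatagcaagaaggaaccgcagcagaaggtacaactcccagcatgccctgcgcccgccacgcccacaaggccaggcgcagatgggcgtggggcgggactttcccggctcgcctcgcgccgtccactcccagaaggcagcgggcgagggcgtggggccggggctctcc

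The lines differed more in mitosis genes than in replication genes. The SD over the 22 lines had a median of 0.46 among the 21 mitosis genes and 0.35 among the 12 replication genes, against 0.33 over all 16755 probe sets. Bub1, the checkpoint kinase whose promoter is printed above, varied most, with an SD of 0.81. Ccne2, cyclin E2, which starts S phase, followed with 0.77, and Cenpe, a kinetochore motor, with 0.74. Each of these 3 genes was lowest in line 67NR. At the other end stood Gmnn (geminin, the inhibitor of Cdt1) with an SD of 0.17, Cdc45 with 0.24 and Plk1, Polo-like kinase 1, with 0.26. This end of the order depends on the scale: after quantile normalization Gmnn had an SD of 0.28, and Plk1 and Cdk1 had the smallest, both 0.21.

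**Figure D1:**
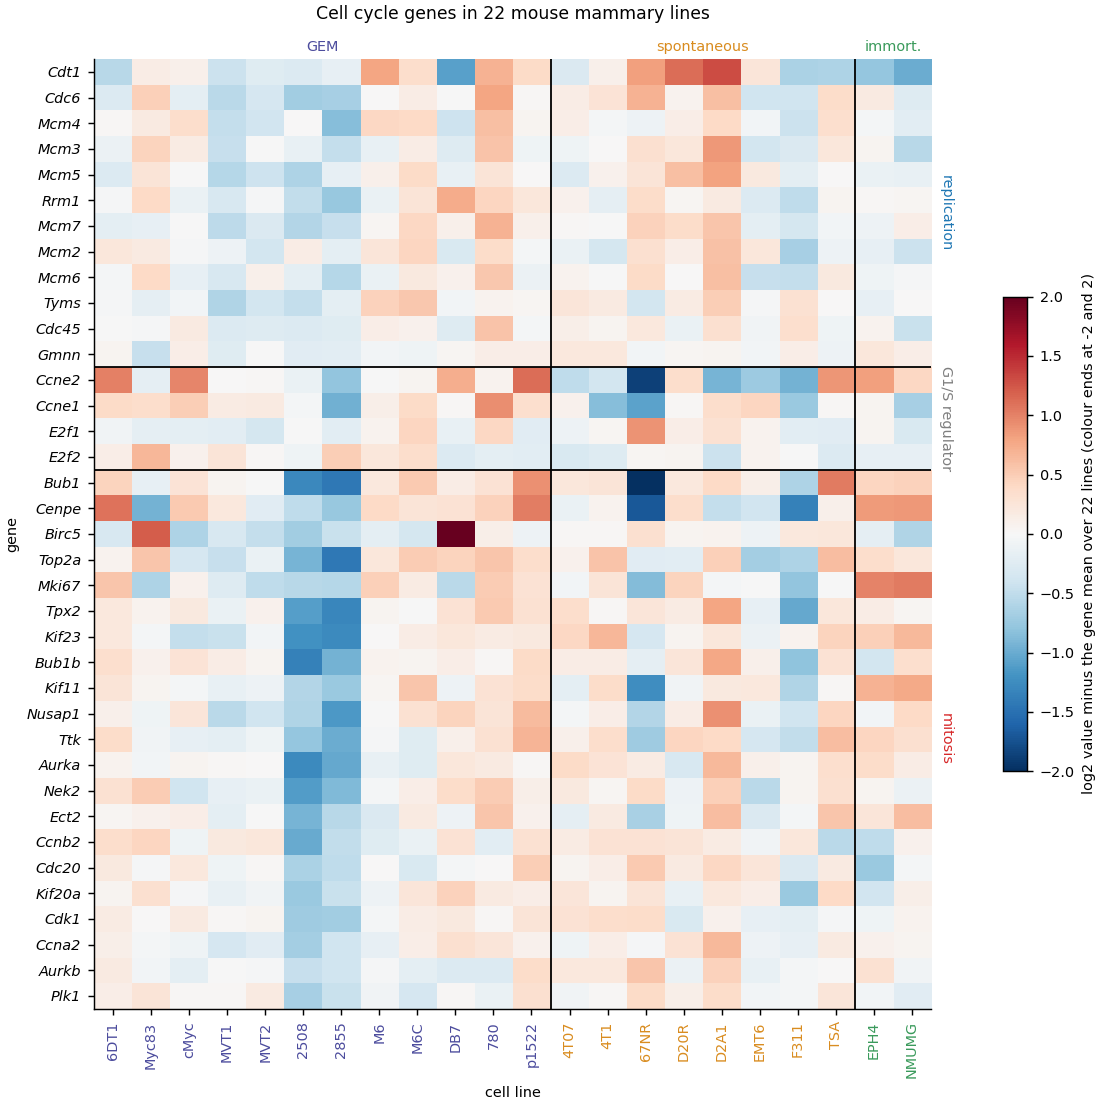
Heatmap of the 37 genes (rows, grouped as replication, G1/S regulator and mitosis genes) in 22 lines (columns, grouped as GEM, spontaneous and immortalized), coloured by the log2 value minus the gene's mean over all lines. Lines 2508 and 2855 are blue over most mitosis genes, 67NR is blue for Bub1, Cenpe, Ccne2 and Kif11, and Birc5 is red in DB7 and Myc83.

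The extremes gathered in a few lines. Of the 37 genes, 22 were lowest in 2508 or 2855, and 16 of these 22 were mitosis genes. Line D2A1 held the highest value of 10 genes, 5 of them replication and 5 mitosis genes, and 780 that of 6, of which 4 were replication genes. On the same deposited scale 67NR was lowest for 6 genes and highest for 5. Such extremes were not counted over all probe sets, so these counts have no background. The array SD was 1.76 in 2855 and 1.88 in 2508, against 2.12 in D2A1 and 2.10 in 780. The part of array spread in these extremes was not tested.

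The mean gene-centred value of each class gives the level of a line. The mitosis mean was lowest in 2508 at -0.85 and in 2855 at -0.80, followed by F311 at -0.36 and 67NR at -0.26. It was highest in D2A1 at 0.37 and in p1522 at 0.35. The replication mean was lowest in 2855 at -0.41 and MVT1 at -0.40, and highest in D2A1 at 0.56 and 780 at 0.48. Both classes were thus high in D2A1 and low in the Wnt lines, while 67NR combined a replication mean of 0.28 with its low mitosis mean and NMUMG a replication mean of -0.23 with a mitosis mean of 0.24.

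**Figure D2:**
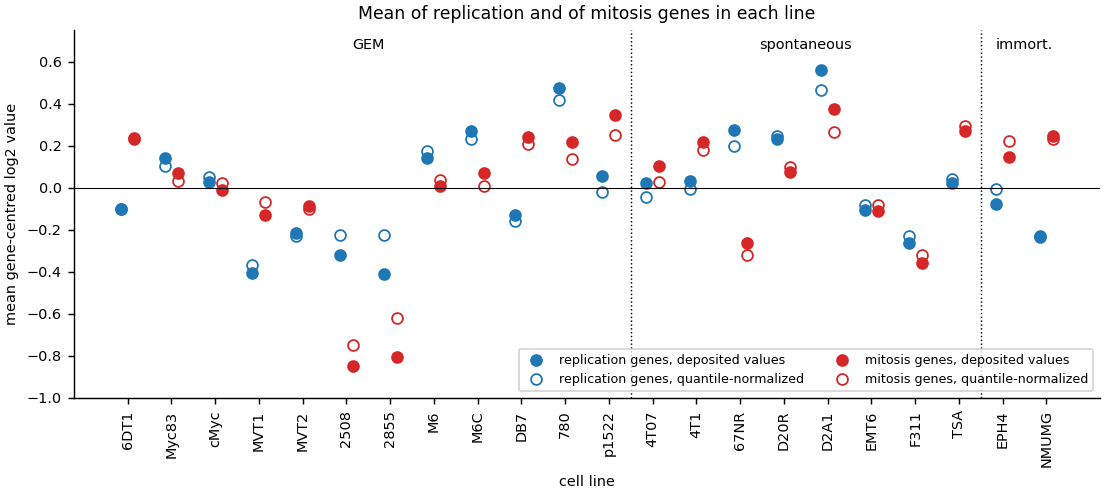
Mean gene-centred log2 value (y axis) of the 12 replication genes (blue) and the 21 mitosis genes (red) in each line (x axis), for the deposited values (filled) and after quantile normalization (open). The mitosis means of 2508 and 2855 lie below those of all other lines on both scales.

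Over the 17 lineages, replication and mitosis means had a Pearson r of 0.54 and a Spearman rho of 0.42, and an r of 0.54 without 780 and the D2 lineage. After quantile normalization, which gives every array the same distribution, r was 0.38. Both means also moved with the SD of the array, with r of 0.71 for replication and 0.78 for mitosis. Without the Wnt lineage and F311, which had the narrowest arrays, those values were 0.62 and 0.47. The part of array spread in the class means was not tested. Within the mitosis class, 16 of 21 genes had an r over 0.5 with the mean of the other members over lineages. Ttk (0.91), Tpx2 (0.89) and Nusap1 (0.87) followed the class most closely, and Birc5 (0.17) and Ccnb2 (0.31) least. Among replication genes 10 of 12 had an r over 0.5, led by Mcm4 at 0.85. Among the 4 G1/S regulators, Ccne1 had an r of 0.61 with the mean of the others, and the median r was -0.04. These correlations share the arrays they were measured on.

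Mitosis genes stood lowest in the Wnt lineage. All 21 mitosis genes and all 12 replication genes had lower values there than the mean of the 9 other GEM lineages, with a median difference of -0.89 for mitosis genes and -0.33 for replication genes, against 0.16 over all probe sets, of which 60.4% were higher. The fall passed the test for 5 of 37 genes (limma, Benjamini-Hochberg adjusted p under 0.05 over all 16755 probe sets), where 0.316% of all probe sets passed in that direction. All 5 are mitosis genes. The Wnt arm is 1 lineage, assumed to vary like the 9 others. The comparison was added after the values were seen.

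Bub1b, the checkpoint protein BubR1, had 8.19 in 2508 and 8.60 in 2855, against values between 9.56 and 9.91 with a median of 9.67 in the 9 other GEM lineages. Its difference was -1.31 ± 0.17 (SE, adjusted p = 0.00583 by limma). Aurka, the centrosomal Aurora kinase, had 9.04 in 2508 and 9.29 in 2855, against 10.12 to 10.54 in the other lineages, with a difference of -1.19 ± 0.17 (adjusted p = 0.00935 by limma). Tpx2, the spindle factor that activates Aurka, had 9.12 in 2508 and 8.91 in 2855, against 10.08 to 10.74, with a difference of -1.38 ± 0.21 (adjusted p = 0.0191 by limma). For these 3 genes both Wnt lines lay below every other GEM lineage, and the calls held in every alternative run. Cdk1, the kinase that starts mitosis, had 10.66 in 2508 and 10.67 in 2855, against 11.37 to 11.63, with a difference of -0.81 ± 0.15 (adjusted p = 0.0423 by limma). Bub1 had 8.27 in 2508 and 8.13 in 2855, against 9.40 to 10.48, with a difference of -1.62 ± 0.31 (adjusted p = 0.0475 by limma). The calls of Cdk1 and Bub1 were close to the threshold and were lost without lineage 6DT1, at adjusted p = 0.0819 for Cdk1 and 0.0863 for Bub1. Both also missed it without 780, cMyc, M6 or MVT2, Cdk1 without Myc83 and Bub1 without DB7, which left 3 of 37 genes called without 6DT1, 780, cMyc, M6 or MVT2. Both calls were also lost with the dimmest probe sets removed or with every entry tested, Cdk1 after quantile normalization (adjusted p = 0.0514 by limma) and Bub1 with a trended, robust variance prior (0.0505).

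Further mitosis genes differed as much without passing. Top2a, topoisomerase II, averaged 9.26 over the 2 Wnt lines, against 9.98 to 10.99 in the others (difference -1.34, adjusted p = 0.107 by limma). Kif23, a kinesin of the central spindle, differed by -1.23 (adjusted p = 0.0697 by limma). In all, 19 of the 37 genes had an unadjusted p under 0.05, each with the lower value in the Wnt lineage, against 7.77% of all probe sets in that direction. In 24 of 37 genes the Wnt lineage lay below the range of the 9 others, as in 14.8% of all probe sets. Mcm2, a helicase subunit, had 10.52 in 2508 and 10.17 in 2855, against a mean of 10.39 over the 9 others. E2f1 and E2f2, activators of S phase genes, differed by -0.03 and 0.12, and E2f2 was the sole gene of the 37 with the higher value in the Wnt lineage.

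**Figure D3:**
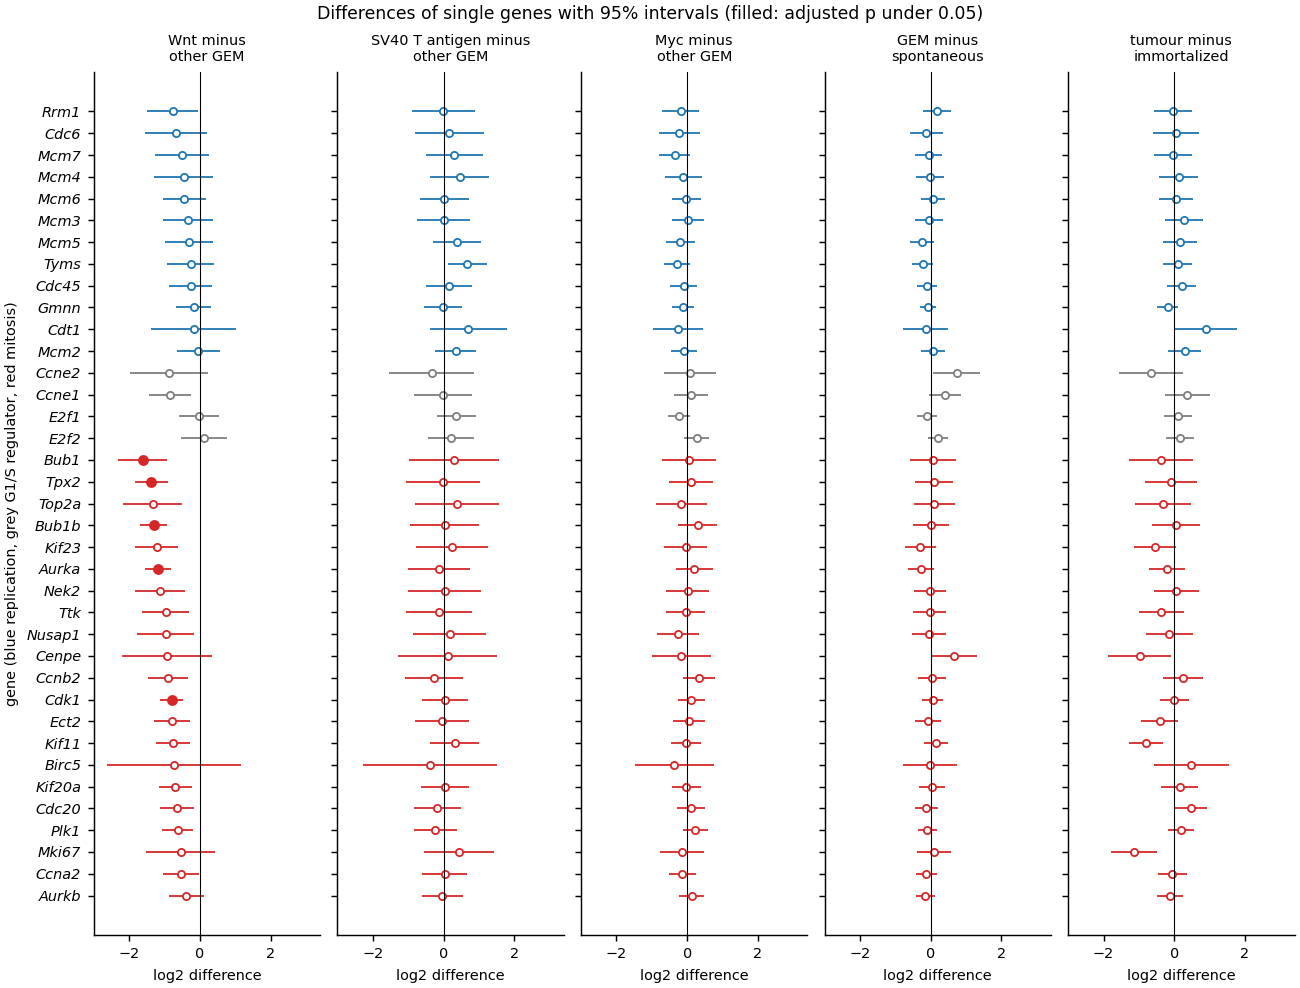
Log2 difference of each of the 37 genes (rows; blue replication, grey G1/S regulators, red mitosis) in 5 comparisons (panels), with lines for the 95% interval and filled points for an adjusted p under 0.05. In the Wnt panel all red points lie left of 0 and 5 are filled, and no point is filled in the other 4 panels.

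Genes of the same processes outside the 37 were looked up from lists chosen with earlier results known. Among 36 other mitosis genes, 35 had lower values in the Wnt lineage and 1 passed the test: Ncaph, a condensin subunit, with 8.56 in the Wnt lineage against 9.69 in the other GEM lineages (adjusted p = 0.0208 by limma). Among 24 other replication genes, 23 had lower values and 1 passed: Dbf4, the activator of the Cdc7 kinase, with 8.09 against 9.60 (adjusted p = 0.0285 by limma). Of 21 cell cycle brakes and E2F or MuvB regulators, 0 passed by limma and 7 had an unadjusted p under 0.05, of which 2 were higher and 5 lower, against 27.4% of all probe sets in either direction. Gas1, a growth arrest gene, had the largest difference there, 1.35 (adjusted p = 0.119 by limma).

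Scaling changed the size of these differences more than their order. With each array centred on its median, all 37 genes were lower in the Wnt lineage, with a median of -0.92 against -0.06 over all probe sets. After quantile normalization 33 were lower, with a median of -0.54 against 0.01, and the medians were -0.69 for mitosis and -0.13 for replication genes. The medium with less serum, the narrow arrays and the driver all belong to the same 2 lines and cannot be told apart. The 2 lines differed in epithelial markers, with a mean of 6.17 in 2508 and 8.66 in 2855, while their mitosis means were -0.85 and -0.80. Against the 9 other GEM lineages, 4 of 5 mesenchymal markers (median 0.98), all 4 endothelial and all 4 adipocyte markers were higher in the Wnt lineage, and 4 of 6 epithelial markers were lower (median -0.42), with Krt18 at -2.33. The part of these in the result was not tested.

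The 3 lines of the 4T tumour split the mitotic genes. Line 67NR, described as unable to disseminate, was set against 4T1, fully metastatic, and 4T07, which reaches the lung without growing there. Bub1 had 9.83 in 4T1 and 9.78 in 4T07, against 7.08 in 67NR, the lowest value of all 22 lines. Single arrays were compared, so the differences have no error and no test. Of the 37 genes, 6 were higher by at least 1 in 4T1 than in 67NR and 0 lower, against 7.31% of all probe sets higher and 5.5% lower. In 4T07, 5 were higher and 2 lower, against 6.23% and 3.97%.

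After Bub1 came the motors Cenpe and Kif11. Cenpe had 8.12 in 4T1 and 7.93 in 4T07, against 6.36 in 67NR. Kif11, which pushes spindle poles apart, had 10.35 in 4T1 and 9.79 in 4T07, against 8.75 in 67NR. Ccne2 had 8.11 in 4T1 and 7.97 in 4T07, against 6.61 in 67NR. Mki67, the proliferation marker Ki-67 that coats mitotic chromosomes, had 8.07 in 4T1 and 7.76 in 4T07, against 6.95 in 67NR. Ttk, the checkpoint kinase Mps1, was 1.07 higher in 4T1 than in 67NR, and Ccne1, cyclin E1, 1.16 higher in 4T07. All of these were lower in 67NR than in both relatives, but Ccne1 was just 0.22 higher in 4T1 than in 67NR.

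Some mitosis genes did not share this. Plk1 had 11.12 in 4T1 and 11.03 in 4T07, against 11.49 in 67NR. Cdc20, the activator of the anaphase-promoting complex, had 9.42 in 4T1 and 9.35 in 4T07, against 9.82 in 67NR. Cdk1 was level as deposited, with 11.72 in 4T1 and 11.65 in 4T07, against 11.73 in 67NR, and after quantile normalization it had 11.71 in 4T1 and 11.59 in 4T07, against 11.53 in 67NR. Of the 12 replication genes, 9 were lower in 4T1 than in 67NR and 9 in 4T07. Their median differences were -0.35 and -0.36, against -0.10 and -0.15 over all probe sets. The 24 other replication genes did not share this lean. Of them, 13 were higher in 4T1 than in 67NR and 10 in 4T07, with median differences of 0.10 and -0.07. Cdt1 had 9.49 in 4T1 and 9.10 in 4T07, against 10.21 in 67NR, and E2f1 had 9.58 in 4T1 and 9.44 in 4T07, against 10.44. On both scales 67NR held the lowest values of Bub1, Cenpe and Ccne2 and the highest of E2f1 and Cdc20 among the 22 lines, which shows as a mixture of blue and red in its column of the heatmap.

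**Figure D4:**
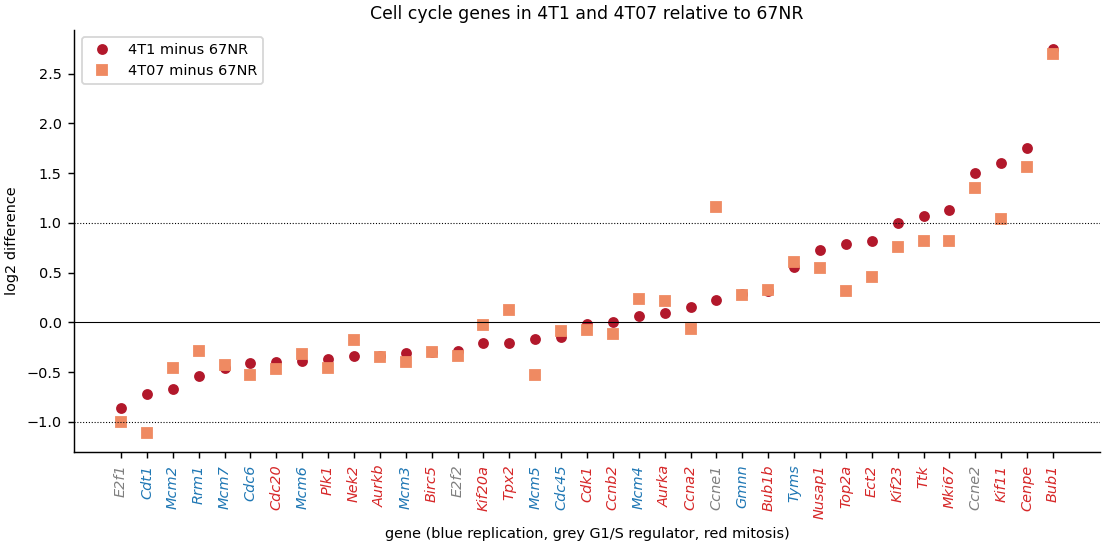
Log2 differences of the 37 genes (x axis; label colours give the class) in 4T1 (circles) and 4T07 (squares) relative to 67NR, ordered by 4T1 minus 67NR. Dotted lines mark differences of 1 in either direction. Bub1 has the largest difference in both lines, and both sets of differences share the values of 67NR.

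The genes low in 67NR tended to be long. Over the 37 genes, the difference 4T1 minus 67NR had an r of 0.56 with the log of the gene's genomic span, and 4T07 minus 67NR one of 0.52. Over 14941 probe sets with a span these values were 0.07 and 0.10. Both comparisons share line 67NR, and genes are not independent replicates. Epithelial markers also differed: their mean was 10.11 in 4T1 and 9.58 in 4T07, against 6.15 in 67NR. The part of gene length or of epithelial state in these differences was not tested. Among 36 other mitosis genes, 8 were higher by at least 1 in 4T1 and 7 in 4T07, and 0 were lower by that much. They include Smc2, a condensin subunit (2.25 in 4T1, 1.53 in 4T07), and Sgo2a, a protector of centromere cohesion (2.16 and 1.92). Of the brakes, Gas1 differed by -3.49 in 4T1 and -3.81 in 4T07, and Cdkn1a, the p21 inhibitor, by -2.09 and -1.31. The list went both ways: in 4T1, 3 of 21 were lower and 3 higher by at least 1, the higher ones being Fbxo5 (1.30), an inhibitor of the anaphase-promoting complex, the E2F factor E2f5 (1.26) and the MuvB subunit Lin9 (1.17). Between 4T1 and 4T07 themselves, 0 of the 37 genes differed by 1, against 3.18% of all probe sets.

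The other related lines differed less. D2A1 had higher values than D20R in 31 of 37 genes and in all 12 replication genes, with a median difference of 0.27, against -0.09 over all probe sets. The largest of the differences above 0 was that of Aurka, with 10.96 in D2A1 and 10.00 in D20R. Ccne2 went against this, with 7.54 in D2A1 and 8.82 in D20R, the sole difference of at least 1, where 4.32% of all probe sets reached that size. Cenpe was also lower, at 7.58 in D2A1 and 8.40 in D20R. The share of all probe sets higher in D2A1 was not counted. The array of D2A1 was wider, with an SD of 2.12 against 1.99 in D20R. The replication means were 0.56 in D2A1 and 0.23 in D20R, and 0.47 and 0.24 after quantile normalization. The mitosis means were 0.37 and 0.08, and 0.27 and 0.10 after it. The part of array spread was not tested. M6C, the lung metastasis line, differed from M6 by less than 1 in all 37 genes, against 1.57% of probe sets that reached 1. For 2508 minus 2855 that background was 5.28%, and again 0 of 37 genes reached it.

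Origin of the tumour separated none of these genes by the test used. GEM lineages had higher values than spontaneous lineages in 16 of 37 genes and lower values in 21, with a median difference of -0.03, against -0.04 over all probe sets, of which 40.7% were higher. By limma, 0 of 37 genes passed, against 0.113% of all probe sets. At an unadjusted p under 0.05 there were 2 genes, both higher in GEM, against 3.58% of all probe sets in that direction. The mitosis mean was 0.01 ± 0.33 in 10 GEM lineages and 0.01 ± 0.26 in 5 spontaneous lineages (SD), and the replication mean -0.03 ± 0.27 in GEM and 0.03 ± 0.25 in spontaneous lineages.

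The 2 genes were Ccne2 and Cenpe. Ccne2 ranged between 7.69 and 9.59 with a median of 8.51 in 12 GEM lines, against 6.61 to 9.35 with a median of 7.86 in 8 spontaneous lines, and its lineage difference was 0.73 (95% interval 0.07 to 1.39, adjusted p = 0.556 by limma). Cenpe ranged between 7.11 and 9.13 with a median of 8.32 in GEM lines, against 6.36 to 8.40 with a median of 7.80 in spontaneous lines, a lineage difference of 0.67 (adjusted p = 0.625 by limma). The ranges overlapped for both. Ccne1 differed by 0.40 (adjusted p = 0.749 by limma). Of the lists outside the 37, Pttg1, securin, had 8.19 in GEM against 8.79 in spontaneous lineages (adjusted p = 0.153 by limma). Among 24 other replication genes 19 had the lower value in GEM and 0 passed, with 2 at an unadjusted p under 0.05, both lower. Among 36 other mitosis genes 0 passed, with 2 higher and 4 lower at that level, against 7.72% of all probe sets in either direction.

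Tumour lineages were set against the 2 immortalized lines. Each difference is the mean of the GEM mean and the spontaneous mean, minus the immortalized mean. By limma 0 of 37 genes passed, against 0.298% of all probe sets, and 5 had an unadjusted p under 0.05, against 11.9% of all probe sets. The largest difference was in Mki67, which ranged between 7.02 and 8.37 with a median of 7.80 in 15 tumour lineages, against 8.80 in EPH4 and 8.86 in NMUMG. Both immortalized lines thus lay above every tumour lineage, and 67NR, the lowest single line as deposited, had 6.95. The lineage difference was -1.14 (95% interval -1.79 to -0.49, adjusted p = 0.117 by limma). Kif11 had 10.69 in EPH4 and 10.75 in NMUMG, also above every tumour line, with a difference of -0.79 (adjusted p = 0.148 by limma). Cenpe, at 8.90 in EPH4 and 8.91 in NMUMG, overlapped with tumour lines that ranged between 6.36 and 9.13, with a difference of -0.98 (adjusted p = 0.367 by limma).

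Replication genes leaned the other way. Cdt1, the licensing factor, ranged between 8.30 and 10.69 in tumour lines, against 8.61 in EPH4 and 8.39 in NMUMG, with a difference of 0.90 (adjusted p = 0.416 by limma). Of the 12 replication genes 9 were higher in tumour lineages, and of the 21 mitosis genes 8 were, against 54.4% of all probe sets. The median difference was 0.11 for replication and -0.13 for mitosis genes, against 0.03 over all probe sets. Epithelial markers moved with this comparison: all 6 had lower values in tumour lineages, with a median difference of -1.41, and their part in the result was not tested. Among the other replication genes 18 of 24 were higher in tumour lineages and among the other mitosis genes 20 of 36, against the same 54.4%. By limma 0 of either list passed, with 4 of each at an unadjusted p under 0.05, against 11.9% of all probe sets.

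**Figure D5:**
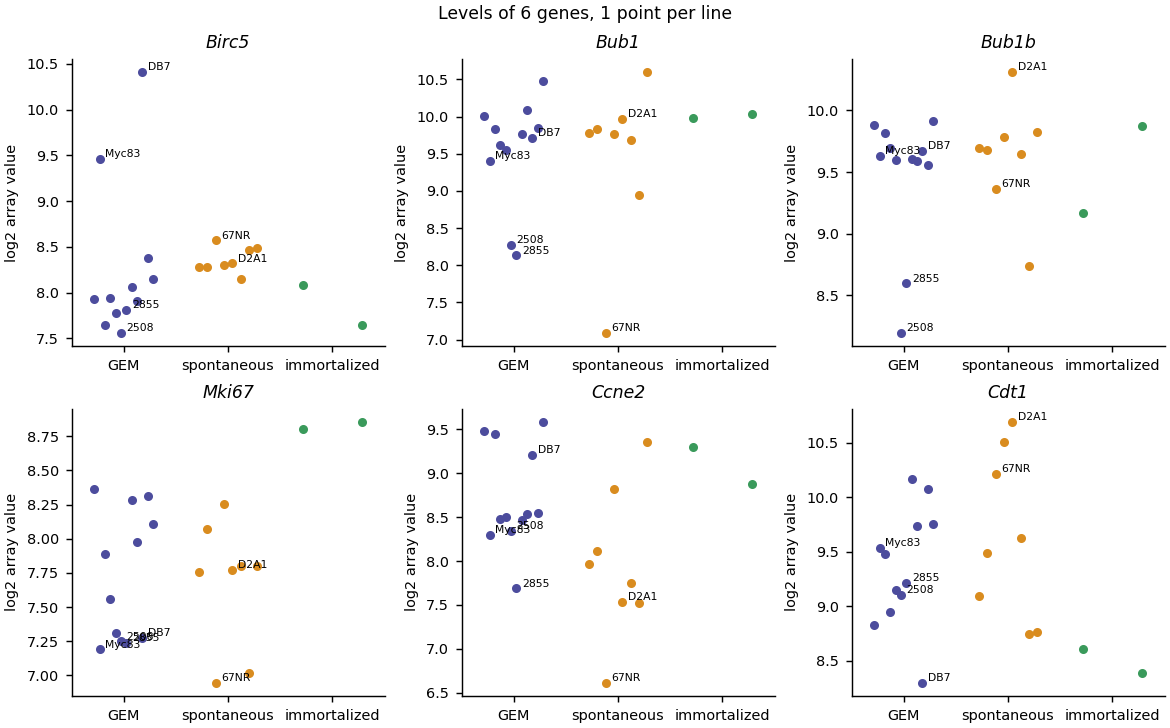
Log2 array values of 6 genes (panels), 1 point per line, for GEM, spontaneous and immortalized lines, with some lines named. Birc5 is high in DB7 and Myc83, Bub1 and Bub1b are low in 2508 and 2855, and both immortalized lines are above all tumour lines for Mki67.

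A Myc transgene separated none of these genes by the test used. Myc is a transcription factor that promotes entry into S phase. Of the 37 genes 15 had higher and 22 lower values in the 5 Myc lineages than in the 5 other GEM lineages, and 11 of 12 replication genes were lower, with a median of -0.15, against 0.03 over all probe sets, of which 58.1% were higher. By limma 0 passed, against 0.0119% of all probe sets, and 0 had an unadjusted p under 0.05, against 5.41%. Mcm7, a helicase subunit, had 10.85 in 6DT1, 10.88 in Myc83, 11.04 in cMyc, 10.52 in MVT1 and 10.76 in MVT2, against 10.52 to 11.74 in the other GEM lineages, with a difference of -0.35 (95% interval -0.80 to 0.09). Ccnb2, cyclin B2, ranged between 10.84 and 11.36 in the Myc lineages, against 10.18 to 11.24 in the others, with a difference of 0.33 (95% interval -0.12 to 0.78). Birc5 had 7.93 in 6DT1, 9.46 in Myc83, 7.64 in cMyc, 7.94 in MVT1 and 7.78 in MVT2, against 7.68 to 10.41 in the others, and its difference of -0.37 turned to 0.10 without DB7. The replication mean was -0.11 ± 0.21 in Myc lineages and 0.05 ± 0.32 in other GEM lineages, and the mitosis mean 0.02 ± 0.14 and 0.00 ± 0.48 (SD, n = 5 each). The lowest of the others was the Wnt lineage at -0.83. Of 24 other replication genes 19 were lower in the Myc lineages, with a median of -0.20, and of 36 other mitosis genes 17 were. Lists of the same processes outside the 37 had 0 genes past the test by limma, with 2 replication genes, 0 mitosis genes and 1 brake at an unadjusted p under 0.05. Among them Rfc3, a clamp loader subunit, had 8.12 in Myc against 8.94 in other GEM lineages.

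SV40 T antigen binds the retinoblastoma family, which restrains E2F. In the T antigen lineage 24 of 37 genes had higher values than the mean of the 9 other GEM lineages, 30 with each array centred on its median and 22 after quantile normalization. Of the 12 replication genes 10 were higher, with a median difference of 0.24, against -0.08 over all probe sets, of which 36.4% were higher. The mitosis median was 0.03, and -0.01 after quantile normalization. By limma 0 of 37 passed, against 0.203% of all probe sets, and 1 had an unadjusted p under 0.05, higher, against 2.48% in that direction. That gene was Tyms, thymidylate synthase, with 9.43 in M6 and 9.51 in M6C, against 8.37 to 9.04 in the other lineages, a difference of 0.67 (95% interval 0.11 to 1.22, adjusted p = 0.914 by limma). Tyms was the sole gene of the 37 for which this lineage lay outside the range of the others, where 6.97% of all probe sets lay above it. Cdt1 had 10.17 in M6 and 9.73 in M6C, against 8.30 to 10.07 (difference 0.70, 95% interval -0.40 to 1.80). E2f1 had 9.60 in M6 and 9.97 in M6C, and differed by 0.36. Among the other replication genes 21 of 24 were higher, 0 passed by limma, 2 had an unadjusted p under 0.05, and Rfc5, another clamp loader subunit, differed by 0.72. Of the 6 epithelial markers 5 had higher values in this lineage, with a median difference of 3.69, and their part in the result was not tested.

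Line 780, from the BRCA-/- tumour, had the highest replication mean among GEM lineages. All 12 replication genes had higher values in 780 than the mean of the 9 others, as did 36.9% of all probe sets. Their median difference was 0.61, against -0.13 over all probe sets and 0.29 for mitosis genes. By limma 0 of 37 passed, against 0.531% of all probe sets, and 8 had an unadjusted p under 0.05, all higher, against 5.53% in that direction. Cdc6, which loads the helicase, had 8.67 in 780, against 7.21 to 8.37 in the others, with a difference of 0.95 (95% interval 0.18 to 1.72, adjusted p = 0.433 by limma). Mcm7 had 11.74 in 780, against 10.52 to 11.26, with a difference of 0.84 (adjusted p = 0.360 by limma). Cdt1 had 10.07 in 780, against 8.30 to 9.95, with a difference of 0.84. In 15 of 37 genes 780 lay above the range of the other lineages, as in 12.2% of all probe sets. The arm is 1 line on 1 array. Epithelial markers had a median difference of -0.98, and their part was not tested.

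Line p1522, from the p53-/- tumour, had higher values than the mean of the 9 others in 30 of 37 genes, and in 20 of 21 mitosis genes. The median difference was 0.37 for mitosis genes and 0.11 for replication genes, against -0.09 over all probe sets, of which 40.1% were higher. After quantile normalization these medians were 0.24 and 0.03, and 27 of 37 genes were higher. By limma 0 of 37 passed, against 0.0477% of all probe sets, and 1, Aurkb, had an unadjusted p under 0.05, higher, against 1.47% in that direction. Bub1 had 10.48 in p1522, against 8.20 to 10.00 in the others, with a difference of 0.92 (95% interval -0.21 to 2.05). Ccne2 had 9.59, against 8.01 to 9.48, and Cenpe 9.08, against 7.11 to 9.13. The range of the others includes the Wnt lineage, and this array had the largest SD of all 22. Epithelial markers were lower in p1522 for 5 of 6 (median -1.34), and all 4 endothelial and all 4 adipocyte markers were lower. The part of these in the result was not tested.

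DB7, from the PyVT Db tumour, had the highest Birc5 value of all lines. Birc5, the survivin subunit of the chromosomal passenger complex that also restrains cell death, had 10.41 in DB7, against 7.64 to 9.46 with a median of 7.94 in the 9 others. This difference, 2.30 (95% interval 1.15 to 3.45, adjusted p = 0.0688 by limma) was the largest of the 37 genes in any comparison of lineages. The next value, 9.46, was that of Myc83, and without Myc83 the adjusted p was 0.00151. Cdt1 had 8.30 in DB7, the lowest of all lines, against 8.83 to 10.07 in the others, with a difference of -1.13 (adjusted p = 0.347 by limma). Rrm1, the large subunit of ribonucleotide reductase, had 11.77 in DB7, against 10.40 to 11.45, with a difference of 0.74 (adjusted p = 0.508 by limma). By limma 0 of 37 passed, against 1.16% of all probe sets, and these 3 genes had an unadjusted p under 0.05, against 9.77%. Among 21 brakes and regulators, 2 passed the test, both lower: E2f8, a repressor of E2F targets, with 8.53 in DB7 against 9.91 in the others (adjusted p = 0.0268 by limma), and E2f4, a partner of the pocket proteins, with 7.96 against 9.24 (adjusted p = 0.0185 by limma). Epithelial markers had a median difference of 1.95 in DB7, and their part was not tested.

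Whether lineages differed beyond the spread among related lines was tested with a limma F test over the 22 lines, whose residual spread rests on 5 degrees of freedom from the 4 lineages with several lines. Of the 37 genes 1 passed, Birc5 (adjusted p = 0.0256 by limma), against 1.91% of all probe sets, and 7 had an unadjusted p under 0.05, against 19.9%. Outside DB7 and Myc83, Birc5 ranged between 7.56 in 2508 and 8.57 in 67NR. Birc5 missed the threshold without DB7 (adjusted p = 0.112 by limma), without the D2 lineage (0.0578) or without M6 and M6C (0.0831). Without 67NR 4 genes passed: Birc5, Bub1, Cdt1 and Kif23. Without the whole 4T lineage 2 passed, Birc5 and Cdt1. Birc5 also followed the other mitosis genes least, and its printed promoter window holds no CHR, CCAAT or E2F match. Whether the 2 go together in other genes was not tested, and single genes differed. Nusap1 has no match either and had an r of 0.87 with its class. Ccnb2 has a CHR motif and a CCAAT box and had an r of 0.31. Ttk also has both and had an r of 0.91.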

How the data were processed

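RNA of 22 mouse mammary lines was measured on exon arrays, 1 array per line, labelled with biotin per the labels' protocols. GCOS and mouse build mm9 are named in the submitters' processing notes. The deposited table holds 1 value per transcript cluster, taken as log2 from its range, and the sources used here do not state how the authors normalized it. Of 23332 entries, 16755 numbered as transcript clusters were tested and 6577 left out. The values were used as deposited.

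Lines of a common source were averaged into 17 lineages. Differences were tested with limma 3.58.1 (lmFit, eBayes, R 4.3.3) with Benjamini-Hochberg adjustment over all probe sets at 0.05. The step was run on simulated data for the GEM with spontaneous, tumour with immortalized, Myc and T antigen comparisons. The Wnt, PyVT Db, BRCA-null and p53-null comparisons and the F test were not simulated. Class means are means of gene-centred values and have no test. Members, lists and comparisons were chosen with earlier results of these data known. Values are given for genes past a threshold, for the 3 largest differences of each comparison, for the 3 largest and 3 smallest SDs, and for Mki67, E2f1, Ccne1, Mcm2 and Plk1. The lists outside the members held 24 replication genes, 36 mitosis genes, 21 brakes and regulators, and markers of 5 cell types. The comparisons of the Wnt, PyVT Db, BRCA-null and p53-null lineages were added after the data were seen. Alternatives were median centring, quantile normalization, removal of probe sets with a mean under 6.01, testing every entry, lines as replicates, another variance prior, other gene rows or class members, and leaving out each lineage. Promoter sequences came from RefSeq (GRCm38.p6), which is not the build of the notes, and no coordinate was converted. Trp53 and Krt8 were not analysed here. The number of arrays limits the precision. Calculations used Python 3.11.15, numpy 2.4.6, pandas 2.3.3, scipy 1.17.1 and matplotlib 3.10.9.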

Additional observations from a re-analysis of the deposited data

Results flagged for a closer look

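The 3 class means and the genes named by rule were checked in 4 sets of lineages, 104 sets of values in all, for 1 value far from the rest by Dixon's test, and 13 stood apart. Chance flags about 1 in 20 sets, but the 13 cannot be set against that share, since most of these genes were named for their difference in the same lineages. In 11 of them the Wnt lineage was the lowest. Its mitosis mean of -0.83 lay below the next value both among the 10 GEM lineages (-0.13) and among the 5 GEM lineages without Myc (0.04). The same held for 3 genes in both sets: Bub1b at 8.39 (next value 9.56 in both), Cdk1 at 10.67 (next 11.37 and 11.39) and Tpx2 at 9.02 (next 10.08 and 10.25). Aurka at 9.16 (next 10.12) and Bub1 at 8.20 (next 9.40) stood apart among all 10 GEM lineages, and Top2a at 9.26 (next 10.79) among the 5 without Myc. These values share 1 pair of lines and are not independent of each other. The remaining 2 were both Birc5: 9.46 in Myc83 was the highest of the 5 Myc lineages, with the next at 7.94, and 10.41 in DB7 the highest of the 5 other GEM lineages, with the next at 8.37.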

How the results depend on the processing

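For comparisons of GEM with spontaneous, tumour with immortalized, Myc with other GEM, T antigen, BRCA-null and p53-null lineages, 0 of the 37 genes passed in any alternative run. The Wnt count of 5 was 6 with arrays centred on their median, 4 after quantile normalization or with another variance prior, 3 with the dimmest probe sets removed or every entry tested, and 19 with each line as a replicate, which counts the 2 Wnt lines as independent. Under that last setting 1422 of 16755 probe sets passed as lower, against 53 with 1 value per lineage. The Wnt count was 5 with 2508 as the Wnt arm and 11 with 2855, where 75 and 720 probe sets passed as lower, and between 3 and 6 when 1 of the other GEM lineages was left out. The PyVT Db count of 0 was 1 with each line as a replicate and between 0 and 1 when a lineage was left out. The F test count of 1 lay between 0 and 2 when a lineage was left out and was 4 without 67NR. The Birc5 difference between Myc and other GEM lineages, -0.37, turned to 0.10 without DB7 and was -0.70 without Myc83. Class means that differed by little between groups changed sign within the spread of the lineages: the mitosis difference of GEM and spontaneous lineages lay between -0.09 and 0.09 when a lineage was left out. No comparison of groups could be paired, because lines of a common source share their origin and driver. The scale of the deposited values is inferred, 5 genes had no usable row, and each line is 1 culture on 1 array. The single-lineage comparisons rest on the spread of the other GEM lineages.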
